A study of Mus musculus with 8 samples.

Results

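The genes described here are 10 AP-1 and immediate early genes in mouse liver: the AP-1 genes Fos, Fosb, Fosl2, Jun, Junb and Jund, together with Egr1, Ier2, Atf3 and Myc. They were taken by symbol from a table of 55487 genes, in which all 10 were found once. The series holds 8 liver libraries from male C57Bl/6J mice of about 10 weeks of age. Of these, 4 come from mice gavaged with water, the controls, and 4 from mice gavaged with 17 mg of potassium sorbate, a preservative of food and drink. Both groups were taken 4 hours after gavage. The design asks how gavage of sorbate, set against water, changes RNA levels in liver. Whole liver was sequenced, so fewer cells of a type and less RNA per cell cannot be told apart, and since no label ties a library to its own animal, the p-values refer to spread among libraries, part of which may be technical.

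Immediate early genes are transcribed within minutes of a growth factor, cytokine or stress signal, from factors already present in the cell, and most of their messages are short-lived. Proteins of the Fos and Jun families join through leucine zippers into the dimer AP-1, which binds DNA and raises or lowers the transcription of its targets. In liver, immediate early genes are known for their rapid induction after partial hepatectomy, in the acute-phase response and during tissue handling or dissociation. Egr1 is a zinc finger factor, Ier2 a small nuclear protein, Atf3 a stress-induced zipper protein of the ATF family and Myc a growth-promoting factor that binds DNA with its partner Max.

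On GRCm38 (GENCODE vM21) the gene spans are chr12:85473890-85477273 for Fos, chr7:19302696-19310051 for Fosb, chr5:32135801-32157842 for Fosl2, chr4:95049034-95052222 for Jun, chr8:84974484-84978718 for Junb and chr8:70698949-70700616 for Jund. They are chr18:34859823-34864984 for Egr1, chr8:84661331-84662852 for Ier2, chr1:191170296-191218039 for Atf3 and chr15:61985391-61990374 for Myc.

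None of the members passed the test. Of the 10, 9 had enough reads to be tested, and edgeR's quasi-likelihood test called 0 of these 9 at an adjusted p of 0.05, against 12.4% of the 13312 genes tested (6.14% higher and 6.3% lower with sorbate). At an unadjusted p of 0.05 it was 2 of 9, Fos and Junb, against 29.5% of all genes. The same 2 members passed with DESeq2, Fos higher and Junb lower with sorbate, where 18.8% of the 13040 genes with an adjusted p were called. Junb alone passed with limma-voom and quality weights, where 29.4% of all genes were called. In none of the 9 did the groups stand without overlap, which 17.7% of all genes showed. Levels are given as CPM, that is reads of a gene relative to all reads of its library, after TMM scaling, and changes as log2 fold changes of sorbate over control.

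The start regions of 3 members are shown because Fos and Junb lay nearest to the threshold, in opposite directions, and Jun encodes the dimer partner of Fos. Each is the 250 bases before the RefSeq start on GRCm38.p6, written 5′ to 3′ on the gene's strand, with matches to the searched motifs in capitals.
Fos, chr12:85473640-85473889, plus strand: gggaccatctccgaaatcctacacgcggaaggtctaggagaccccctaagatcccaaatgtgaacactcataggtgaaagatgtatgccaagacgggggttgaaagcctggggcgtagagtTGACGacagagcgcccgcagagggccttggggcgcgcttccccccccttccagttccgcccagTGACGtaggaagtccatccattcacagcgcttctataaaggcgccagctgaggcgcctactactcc
Jun, chr4:95052223-95052472, minus strand: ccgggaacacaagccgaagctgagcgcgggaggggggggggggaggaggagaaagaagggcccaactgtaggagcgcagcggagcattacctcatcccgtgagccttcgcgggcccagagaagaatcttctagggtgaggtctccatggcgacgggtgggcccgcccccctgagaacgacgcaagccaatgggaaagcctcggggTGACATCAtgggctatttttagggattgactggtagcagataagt
Junb, chr8:84978749-84978998, minus strand: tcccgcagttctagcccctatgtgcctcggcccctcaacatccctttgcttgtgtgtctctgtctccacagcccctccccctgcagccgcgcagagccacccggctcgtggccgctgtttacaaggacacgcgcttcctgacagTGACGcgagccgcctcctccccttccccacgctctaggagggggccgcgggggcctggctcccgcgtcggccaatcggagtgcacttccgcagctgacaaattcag

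The motifs searched on both strands were TGANTCA, the AP-1 element, TGACNTCA, the longer element bound by Jun and ATF proteins, and TGACG, the core that CREB and ATF proteins bind. TTCNNNGAA, the STAT element, CACGTG, the E-box bound by Myc with Max and by clock factors, and the CArG box, bound by the serum response factor, were also searched. TGACG overlaps with TGACNTCA where the free base is G, so a site of that kind matches both. The Fos window held TGACG from 129 to 125 and from 66 to 62 bases before the start, and the Junb window held it from 106 to 102 bases before. The Jun window held TGACATCA, a match to TGACNTCA, from 45 to 38 bases before the start. TGACG occurs in 17.8% and TGACNTCA in 7.49% of all 32851 windows of this length in the table. The other motifs, which had no match in these 3 windows, occur in 6.75% (TGANTCA), 7.02% (TTCNNNGAA), 6.02% (CACGTG) and 1.47% (the CArG box) of the windows. The table held 7 of the 10 members, and Egr1, Ier2 and Myc had no entry. The Fosb window held TGACG from 60 to 56 and the Atf3 window held it, on the minus strand, from 7 to 3 bases before the start. The RefSeq start used for Atf3 lies 34706 bases from the start of its GENCODE span, inside the gene. The Fosl2 and Jund windows, whose RefSeq starts lie 671 and 1210 bases from the GENCODE starts, held no match. A match is a description of letters and not a measured binding site. Sequence further upstream than these 250 bases was not searched, so a missing match says nothing of elements beyond them.

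Fos, the founding member of the Fos family and a protein that binds DNA only with a partner such as Jun, was low in both groups and had a higher mean with sorbate. Its level was 1.74, 3.02, 2.22 and 2.07 CPM in controls 1 to 4 and 1.76, 5.56, 4.89 and 10.5 CPM in sorbate 1 to 4. Sorbate 2, 3 and 4 lay above every control, while sorbate 1 lay at the level of the lowest control. The group means were 2.26 ± 0.541 and 5.67 ± 3.60 CPM (SD, n = 4 per group). The log2 fold change was 1.31 (SE 0.44, 95% interval 0.34 to 2.28), with an adjusted p of 0.0753 by edgeR's quasi-likelihood test. Fos rested on 177 reads over the controls and 451 over the sorbate libraries. The call appeared without sorbate 1 (log2 fold change 1.62, edgeR adjusted p = 0.0205) and without control 2 (1.48, adjusted p = 0.0325), and without sorbate 4 the log2 fold change was 0.85 (adjusted p = 0.213). The fit without control 2 called 2053 genes higher over all genes, against 818 with all libraries. With limma-voom and quality weights the log2 fold change of Fos was 0.92 (limma-voom adjusted p = 0.223). With a surrogate variable as a covariate, described below, it was 0.99 (edgeR adjusted p = 0.330).

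The other Fos family genes showed no called difference. Fosl2 encodes Fra-2, a Fos protein that lacks a strong activating domain. It stood at 12.2, 4.86, 12.7 and 11.7 CPM in controls 1 to 4 and at 6.91, 12.3, 8.78 and 8.03 CPM in sorbate 1 to 4. Control 2 was the lowest of the 8 libraries and the other controls overlapped with sorbate 2 only. The log2 fold change was −0.21 (SE 0.28, 95% interval −0.83 to 0.41; edgeR adjusted p = 0.657). Without control 2 it was −0.43 (edgeR adjusted p = 0.0911), and with a surrogate variable as a covariate it was 0.48 (adjusted p = 0.186). That variable was negative in controls 1, 3 and 4 and positive in control 2 and every sorbate library. It overlaps with treatment, so fits with it may also remove part of the treatment difference. Fosb had 15 reads over the 4 controls and 21 over the 4 sorbate libraries, with 0 reads in sorbate 1, and was too low to be tested. With no filter on low counts its log2 fold change was 0.44 (95% interval −1.42 to 2.33; edgeR adjusted p = 0.805), an interval too wide at this read number to show a difference.

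Among the Jun genes, the means of Jun and Junb lay in opposite directions. Jun, the activating partner of Fos, measured 23.6, 24.0, 29.9 and 14.2 CPM in controls 1 to 4 and 21.2, 29.3, 30.4 and 88.4 CPM in sorbate 1 to 4. Sorbate 4 stood alone, and the other 3 sorbate libraries lay within or just above the range of the controls. Its log2 fold change was 0.88 (SE 0.41, 95% interval −0.02 to 1.78; edgeR adjusted p = 0.176). Without sorbate 4 it was 0.24 (edgeR adjusted p = 0.571).

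Junb, a Jun protein that can oppose Jun at some targets, measured 69.2, 40.2, 54.6 and 54.2 CPM in controls 1 to 4 and 44.5, 44.9, 24.3 and 26.3 CPM in sorbate 1 to 4. Only control 2 lay within the range of the sorbate libraries, and sorbate 3 and 4 were the lowest of all. The means were 54.5 ± 11.9 and 35.0 ± 11.2 CPM (SD, n = 4 per group), a log2 fold change of −0.64 (SE 0.23, 95% interval −1.15 to −0.13; edgeR adjusted p = 0.0925). Without control 2 the log2 fold change was −0.75 and Junb passed the test (edgeR adjusted p = 0.0213). With the surrogate variable it was −0.31 (adjusted p = 0.475).

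Jund, the Jun gene that is expressed steadily in unstimulated cells, measured 65.7, 40.4, 44.9 and 45.2 CPM in controls 1 to 4 and 32.1, 37.5, 34.2 and 49.8 CPM in sorbate 1 to 4. Sorbate 1, 2 and 3 lay below every control and sorbate 4 above all but control 1. For Jund the log2 fold change was −0.35 (SE 0.18, 95% interval −0.75 to 0.04; edgeR adjusted p = 0.218). The annotation places genes on the opposite strand over all 3 Jun genes, and the sources used here do not say whether strand was used in counting. Exons of the antisense gene Gm11175 cover 52.6% of those of Jund, exons of Prdx2 7.52% of those of Junb and exons of Junos 7.28% of those of Jun. Gm11175 had 0 to 7 reads per library and Junos 1 to 20. Prdx2, a peroxide-reducing enzyme, stood at 89.4 to 96.6 CPM in control and 84.5 to 114.8 CPM in sorbate libraries (log2 fold change 0.09; edgeR adjusted p = 0.625). The reads that these genes and the Jun genes share were not counted here.

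**Figure D1:**
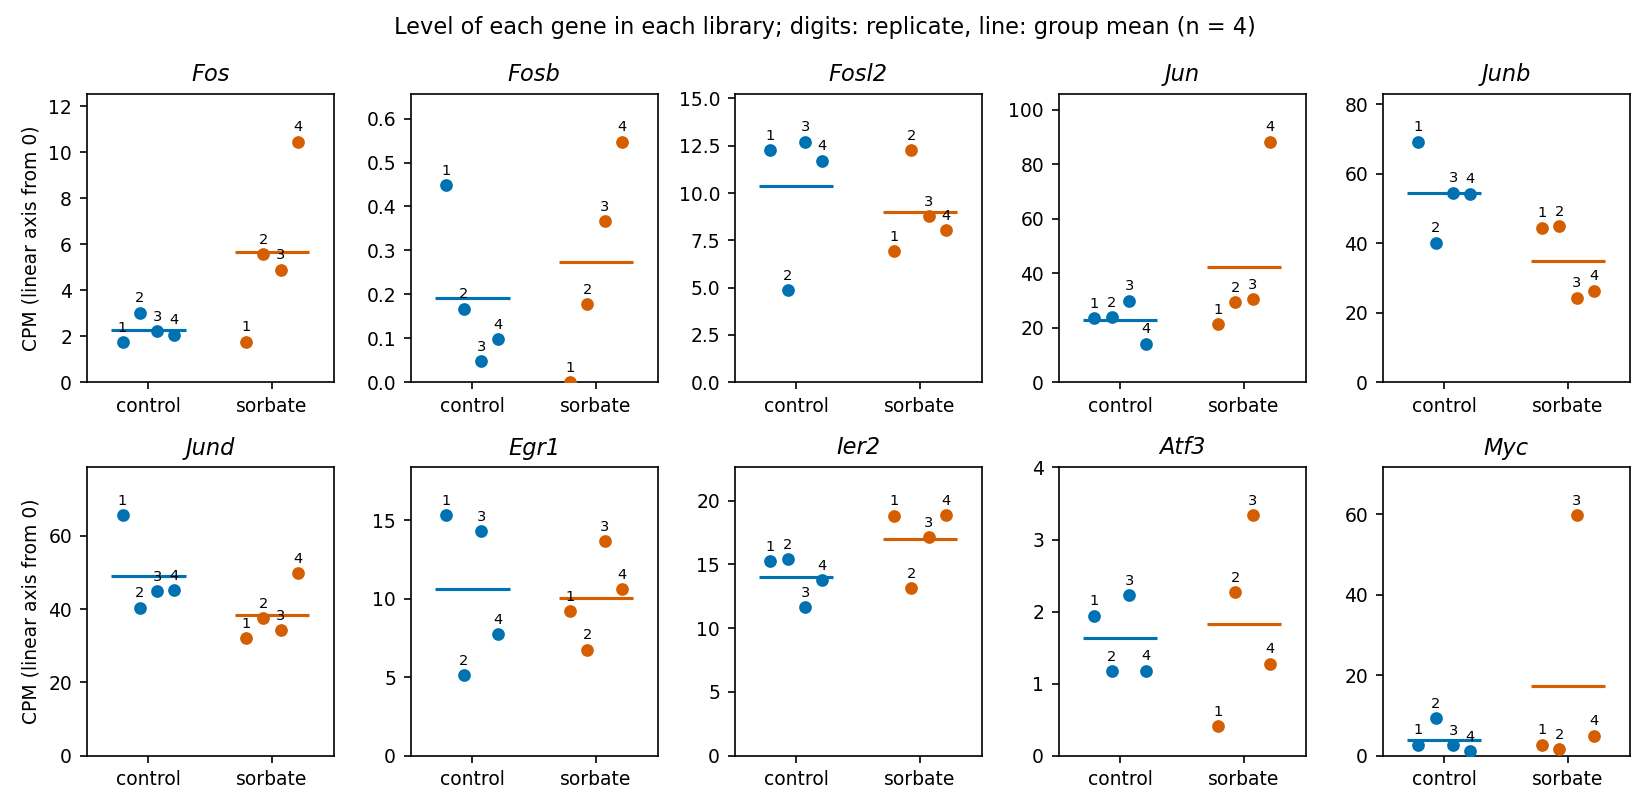
Level of each of the 10 genes in CPM (vertical axes, linear from 0) in the 4 control and 4 sorbate libraries; digits give the replicate and lines the group mean. Single libraries set several of the means: sorbate 4 for Jun at 88.4 CPM, sorbate 3 for Myc at 59.8 CPM and control 2 for Fosl2 at 4.86 CPM.

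Egr1 and Ier2 were close between the groups. Egr1 measured 15.3, 5.14, 14.3 and 7.72 CPM in controls 1 to 4 and 9.19, 6.76, 13.7 and 10.6 CPM in sorbate 1 to 4. The sorbate libraries all lay between the lowest and the highest control. Its log2 fold change was −0.08 (SE 0.33, 95% interval −0.81 to 0.64; edgeR adjusted p = 0.89), and its sign was positive with total count scaling and with the surrogate variable. Ier2 was the steadiest member, with a highest level 1.62 times its lowest over the 8 libraries. It measured 15.2, 15.4, 11.7 and 13.8 CPM in controls 1 to 4 and 18.8, 13.1, 17.1 and 18.9 CPM in sorbate 1 to 4. Sorbate 1, 3 and 4 lay above all controls and sorbate 2 within them. The log2 fold change was 0.28 (SE 0.15, 95% interval −0.04 to 0.60; edgeR adjusted p = 0.234).

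Atf3, which represses many stress and inflammation genes, was low and uneven. It measured 1.94, 1.17, 2.22 and 1.18 CPM in controls 1 to 4 and 0.411, 2.27, 3.34 and 1.28 CPM in sorbate 1 to 4. The sorbate libraries held both the lowest and the highest level of the series. For Atf3 the log2 fold change was 0.15 (SE 0.51, 95% interval −0.98 to 1.29; edgeR adjusted p = 0.87), from 130 reads over the controls and 156 over the sorbate libraries. It was −0.32 without sorbate 3 (adjusted p = 0.743).

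Among the 9 tested members Myc had the widest spread, 52.9 times between its highest and lowest library. It measured 2.74, 9.27, 2.61 and 1.13 CPM in controls 1 to 4 and 2.69, 1.64, 59.8 and 4.93 CPM in sorbate 1 to 4. Sorbate 3 alone carried the higher mean of the group, and sorbate 1, 2 and 4 lay within the range of the controls. In reads this was 1308 in sorbate 3 against 37 to 81 in the other sorbate libraries and 23 to 166 in the controls. The log2 fold change of 2.15 (SE 1.07, 95% interval −0.20 to 4.51; edgeR adjusted p = 0.207) was thus the largest of the 9, and without sorbate 3 it was −0.36 (adjusted p = 0.77). DESeq2 gave Myc no adjusted p.

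**Figure D2:**
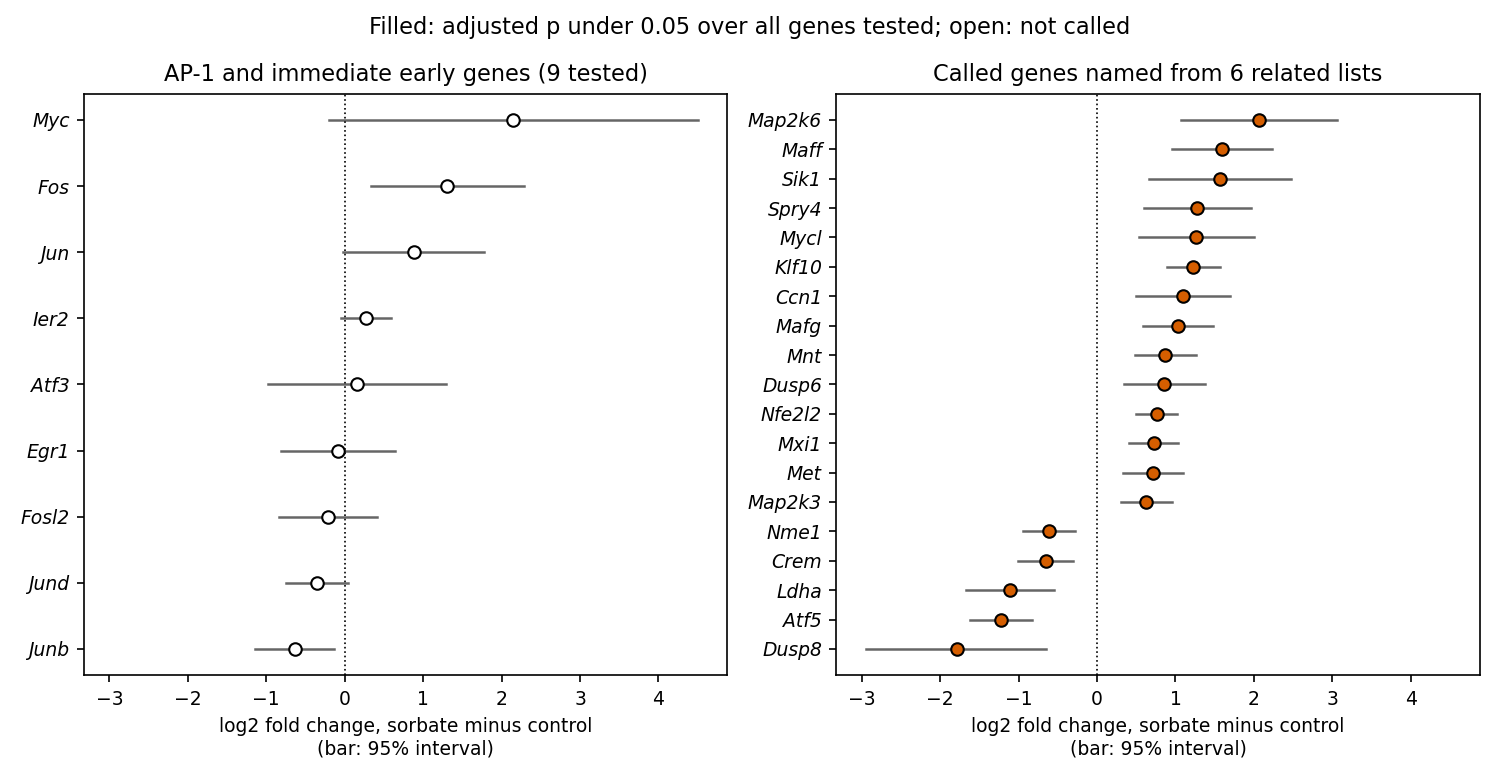
Log2 fold change of sorbate over control with its 95% interval (horizontal axis). The 9 tested members are on the left and genes named from related lists on the right. The list of genes with textbook AP-1 sites, whose named genes were all lower with sorbate, is not drawn. Filled points passed an adjusted p of 0.05. All 9 points on the left are open, from Myc at 2.15 to Junb at −0.64, and all points on the right are filled because these genes were named for passing.

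The libraries with high levels were not the same from gene to gene. Sorbate 4 held the highest level of 3 of the 9 tested members (Fos, Jun and Ier2), control 1 of 3 (Junb, Jund and Egr1), sorbate 3 of 2 (Atf3 and Myc) and control 3 of 1 (Fosl2). Over all 13312 genes tested, sorbate 4 was the highest library for 15.1%, control 1 for 16.0% and sorbate 3 for 9.22%. Control 2 lay outside the range of the other 3 controls in 8 of the 9 members, above it for Fos, Ier2 and Myc and below it for Fosl2, Junb, Jund, Egr1 and Atf3. How often control 2 did so over all genes tested was not counted, so this is not read as a trait of the members. Within the sorbate group, Fos and Jun were highest and Junb next to lowest in sorbate 4, at 10.5, 88.4 and 26.3 CPM.

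**Figure D3:**
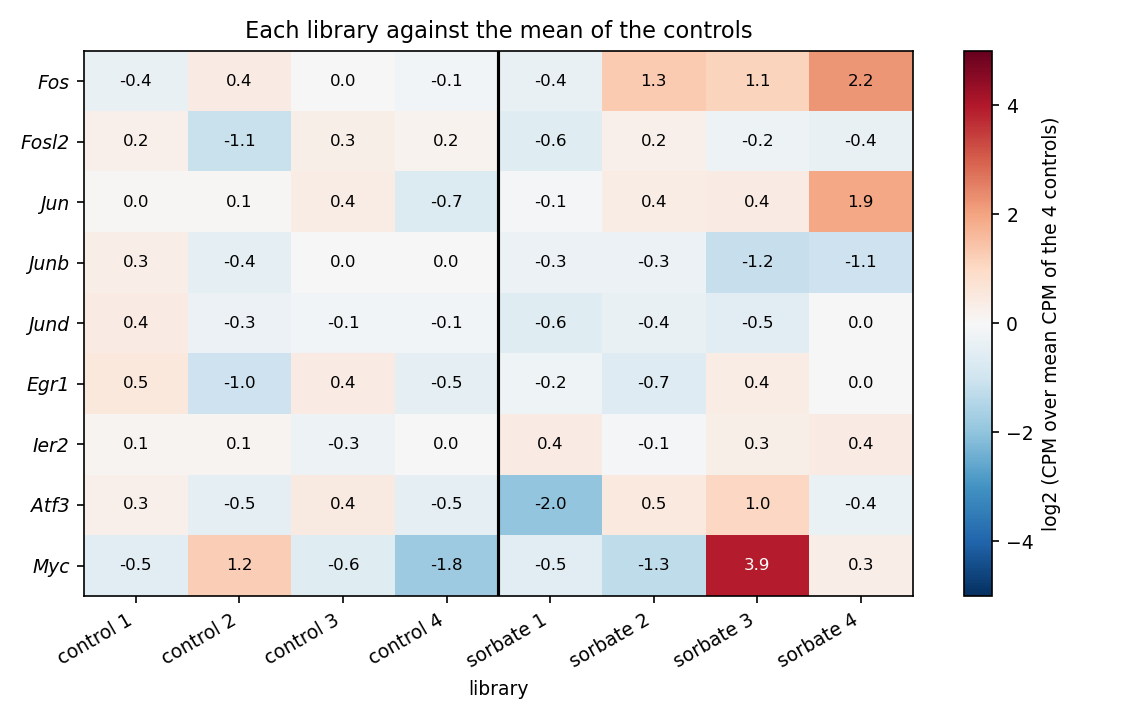
Log2 of each library's CPM over the mean of the 4 controls, for the 9 tested members (rows) and 8 libraries (columns, controls left of the line). Red cells are above and blue cells below the control mean; the most intense cell is Myc in sorbate 3, and Fos and Jun are both red in sorbate 4 while Junb is blue there.

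Per kilobase of exon, the order of levels was led by Jund and Junb in both groups. In the controls the mean level was 29.4 CPM per kilobase for Jund and 23.7 for Junb, whose ranges overlapped. Ier2 at 9.21 and Jun at 7.18 CPM per kilobase followed, again with overlapping ranges, and below them Egr1 (2.37), Myc (1.45), Fosl2 (1.07), Fos (0.962) and Atf3 (0.757) each overlapped with the next. Fosb was lowest at 0.0305 CPM per kilobase, below the range of Atf3. With sorbate the order was Jund (23.0), Junb (15.2), Jun (13.3), Ier2 (11.2), Myc (6.36), Fos (2.41), Egr1 (2.24), Fosl2 (0.930), Atf3 (0.847) and Fosb (0.0437 CPM per kilobase). Neighbours in that order overlapped, save Egr1 with Fosl2 and Atf3 with Fosb.

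Further genes of the family and its pathways came from lists drawn up with the members. Of 16 other AP-1 relatives and dimer partners tested, 4 were called higher and 2 lower, 37.5% against the background of 12.4%, with a median log2 fold change of 0.03 (−0.02 over all genes). Without control 2 the calls were 6 and 7, and without any other library 3 higher and 1 or 2 lower. Over all genes the calls were 818 higher and 838 lower, and 2053 and 1915 without control 2. Without any other library they were 332 to 555 and 357 to 572. The leave-out counts of this and the following lists stand beside those general shifts. Maff, a small Maf protein that dimerises with zipper factors, measured 2.49, 2.85, 2.08 and 1.13 CPM in controls 1 to 4 and 4.37, 6.98, 6.40 and 8.03 CPM in sorbate 1 to 4, with no overlap. It rose by 1.59 on the log2 scale (SE 0.29, edgeR adjusted p = 0.00773). Mafg, another small Maf protein, rose by 1.03 (SE 0.20, adjusted p = 0.0106), and Nfe2l2, which encodes the antioxidant regulator NRF2, rose by 0.76 (SE 0.12, adjusted p = 0.00409). Atf5, a stress-related ATF protein, averaged 259.1 ± 66.7 CPM in control and 110.9 ± 8.34 CPM in sorbate libraries (SD, n = 4 each), and fell by 1.22 on the log2 scale (SE 0.18, edgeR adjusted p = 0.00314). These 4 calls held in all 8 fits that left out a library. The other calls were Atf7 (log2 fold change 0.52) and Atf6b (−0.45), named after their values were seen. Fosl1, Batf and Batf2 were too low to be tested.

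Of 36 other early response genes tested, 4 were called higher and 2 lower, 16.7%, with a median log2 fold change of 0.05. Without control 2 the calls were 7 and 8, and without any other library 2 to 4 higher and 0 to 1 lower. Total count scaling gave 6 and 0. Klf10, a zinc finger gene induced by TGF-beta, measured 16.6, 15.3, 9.72 and 15.3 CPM in controls 1 to 4 and 31.8, 33.0, 32.7 and 35.7 CPM in sorbate 1 to 4. Every sorbate library lay above every control, and Klf10 rose by 1.23 (SE 0.15, edgeR adjusted p = 0.0016). Sik1, a kinase induced by cAMP, rose by 1.57 (SE 0.41, adjusted p = 0.0328), but sorbate 1 at 11.4 CPM lay within the controls and the call held in 2 of the 8 leave-outs. Ccn1, a secreted matrix protein, rose by 1.09 (SE 0.27, adjusted p = 0.0267), a call that held in 1 of the 8 leave-outs. Maff belongs to this list as well. The genes called lower, named after their values were seen, were Ier5 and Id3 (log2 fold changes −1.32 and −0.92, edgeR adjusted p = 0.0441 and 0.0416). The groups overlapped in both. Ier5 was at 1.90 CPM in control 2, below every sorbate library (2.01 to 2.80 CPM). Id3 was at 30.5 CPM in control 3, within the sorbate libraries (13.7 to 30.8 CPM). Nr4a1, an early-induced nuclear receptor chosen after its values were seen, measured 2.24, 25.4, 8.87 and 2.68 CPM in sorbate 1 to 4 against 0.629 to 3.69 CPM in the controls, so that sorbate 1 and 4 lay within the controls, and did not pass (log2 fold change 2.60, SE 0.80, edgeR adjusted p = 0.0571).

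Genes that damp the kinase signal to these promoters included called ones in both directions. Of 13 MAPK feedback genes tested, 2 were called higher and 1 lower, 23.1%, with a median log2 fold change of 0.37. Without control 2 the calls were 3 and 1, and without any other library 0 to 1 higher and 0 lower. Spry4, an inhibitor of receptor tyrosine kinase signalling, rose by 1.28 (SE 0.31, edgeR adjusted p = 0.0246), and Dusp6, a phosphatase of ERK, rose by 0.86 (SE 0.23, adjusted p = 0.0372). Dusp8, a phosphatase of JNK and p38, fell by 1.79 (SE 0.52, adjusted p = 0.0474). The groups overlapped in all 3 genes, and their calls held in 2, 3 and 1 of the 8 leave-outs. Dusp1, chosen after its values were seen, was highest in sorbate 4 at 170.3 CPM, as Jun was, against 32.4 to 103.9 CPM in the controls, and did not pass (log2 fold change 0.62, edgeR adjusted p = 0.345).

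Of 34 upstream kinases and promoter-bound regulators tested, 3 were called higher and 4 lower, 20.6%, with a median log2 fold change of −0.03. These counts moved with single libraries: 6 and 7 were called without control 2 and 0 and 0 without control 3. Without any of the other libraries 0 to 4 were higher and 0 to 2 lower. The calls over all genes moved the same way, to 2053 and 1915 without control 2 and to 332 and 357 without control 3. Map2k6 and Map2k3, kinases that activate p38, rose by 2.06 (SE 0.45, edgeR adjusted p = 0.0172) and 0.63 (SE 0.15, adjusted p = 0.0229). Met, the receptor of hepatocyte growth factor, rose by 0.71 (SE 0.17, adjusted p = 0.0255). Crem, a cAMP-responsive zipper gene, fell by 0.66 (SE 0.16, adjusted p = 0.0248). Stat3 and Rps6ka3, named after their values were seen, were also among those called lower, with log2 fold changes of −0.80 and −0.78. For Stat3 control 2, at 125.2 CPM, lay within the sorbate libraries (105.9 to 129.6 CPM). The calls of Map2k6, Map2k3, Met and Crem held in 5, 4, 3 and 3 of the 8 leave-outs.

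Around Myc, 3 of 11 tested genes of the MAX network were called higher and 0 lower, 27.3%, with a median log2 fold change of 0.25. Mnt and Mxi1, which encode MAX partners that oppose Myc, rose by 0.87 (SE 0.18, edgeR adjusted p = 0.0126) and 0.72 (SE 0.14, adjusted p = 0.0108), with no overlap of the groups and in all 8 leave-outs. With the surrogate variable Mxi1 kept its call (0.52, adjusted p = 0.0444) and Mnt lost it (0.71, adjusted p = 0.0644). Mycl, a paralog of Myc, rose by 1.26 (SE 0.33, adjusted p = 0.0335), a call that held only without control 2 among the leave-outs. Of 28 Myc-driven nucleolar and growth genes, 0 were called higher and 2 lower by edgeR, 7.14%, with 9 at an unadjusted p of 0.05. DESeq2 called 1 of this list higher and 4 lower and limma-voom 2 and 7, counts that stand beside the larger shares of all genes, 18.8% and 29.4%, which those tools called. Without control 2 edgeR called 1 higher and 8 lower, and with the surrogate variable 0 and 0. Ldha, lactate dehydrogenase A, fell by 1.11 (SE 0.25, edgeR adjusted p = 0.0198) and Nme1, a nucleoside diphosphate kinase, by 0.61 (SE 0.15, adjusted p = 0.0253), calls that held in 2 and 3 of the leave-outs.

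Of 21 tested genes with textbook AP-1 sites, 0 were called higher and 5 lower, 23.8%, with a median log2 fold change of −0.62. Lower calls numbered 11 without control 2, 2 or 3 without any other library and 2 with the surrogate variable. Over all genes, lower calls numbered 1915 without control 2 and 301 with the surrogate variable, against 838 in the main fit. The 5 lower calls of the main fit were Cdkn1a, which encodes the cell cycle inhibitor p21, Spp1, which encodes osteopontin, the chemokine gene Cxcl2 and the metallothioneins Mt2 and, named after its values were seen, Mt1. Cdkn1a measured 107.5, 6.31, 75.8 and 68.5 CPM in controls 1 to 4 and between 0.823 and 2.62 CPM in the 4 sorbate libraries. Control 2 lay far below the other controls and above every sorbate library. Cdkn1a fell by 5.25 on the log2 scale (SE 0.74, edgeR adjusted p = 0.00265), in all 8 leave-outs, and with the surrogate variable its log2 fold change was −3.08 (adjusted p = 0.000349). Spp1 averaged 137.6 ± 79.5 CPM in control and 30.7 ± 7.28 CPM in sorbate libraries (SD, n = 4 each), and fell by 2.16 on the log2 scale (SE 0.39, edgeR adjusted p = 0.00801), with no overlap and in all 8 leave-outs. With the surrogate variable it fell by 1.24 (adjusted p = 0.0284). Mt2 stood at 1475 to 1686 CPM in controls 1, 3 and 4 but at 10.6 CPM in control 2, below the 28.4 to 112.2 CPM of the sorbate libraries. Its log2 fold change was −3.93 (SE 1.03, edgeR adjusted p = 0.0335), a call that held only without control 2 among the leave-outs, and with the surrogate variable it was 0.53 (adjusted p = 0.607). Cxcl2 was very low, at 0.559 to 1.08 CPM in control and 0.112 to 0.412 CPM in sorbate libraries, where 1 read made 0.0374 to 0.0609 CPM. Its log2 fold change was −1.70 (SE 0.46, edgeR adjusted p = 0.0355), a call that held in 2 of the 8 leave-outs. The call was lost with no filter on low counts (edgeR adjusted p = 0.0538), and DESeq2 gave Cxcl2 no adjusted p. With limma-voom 1 gene of this list was called higher and 8 lower, against 29.4% of all genes. Spp1 also marks bile duct cells, and these 5 genes are driven by other factors besides AP-1.

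**Figure D4:**
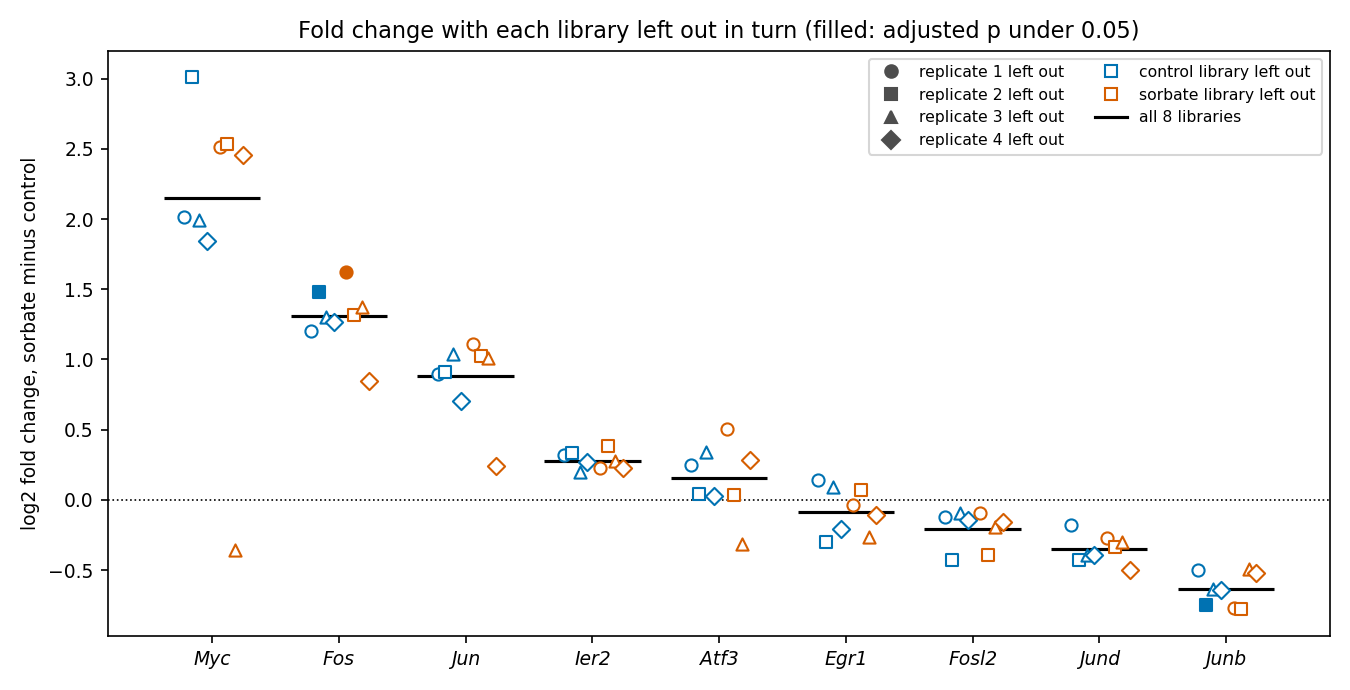
Log2 fold change of sorbate over control (vertical axis) for the 9 tested members with each library left out in turn; blue symbols leave out a control, orange symbols a sorbate library, the shape gives the replicate and the bar the value from all 8 libraries. Only 3 of the symbols are filled, that is below an adjusted p of 0.05: Fos without control 2 or sorbate 1 and Junb without control 2; Myc without sorbate 3 lies at −0.36.

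The genes whose log2 CPM followed a member most closely over the 8 libraries were, by Pearson correlation among 11242 genes, Manba (r = 0.955) and Ttbk1 (0.949) for Fos and Hipk2 (0.959) and Rab43 (0.958) for Jun. For Junb they were Atg16l2 (0.962) and Dancr (0.960), for Egr1 Mcl1 (0.966) and Etv6 (0.934), for Atf3 Il1b (0.926) and Gstt1 (0.921), and for Myc Nat8 (0.949) and Rab2b (0.945). These values describe 8 points that share groups and depth, and the best of many genes is high by selection. Of the 12 genes only Atg16l2, an autophagy-related gene, was called, with a log2 fold change of −0.91 (SE 0.23, edgeR adjusted p = 0.0296) that held in 2 of the 8 leave-outs. Hipk2, a nuclear kinase, had its highest level in sorbate 4 as Jun did, at 30.9 CPM against 11.1 to 19.6 CPM in the other libraries.

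Total counts ran from 15773932 in sorbate 4 to 25844731 in sorbate 1. The hepatocyte markers stood at 71630 to 90170 summed CPM in the controls and 82260 to 106600 with sorbate. Of 10 Kupffer cell markers 6 were lower and 0 higher, and their summed level was 508.6 to 659.0 CPM in controls 1, 3 and 4, 272.7 CPM in control 2 and 195.8 to 379.8 CPM with sorbate. The 10 neutrophil markers, of which 2 were tested and both lower, summed to 15.5 to 27.1 CPM in those 3 controls, 2.29 CPM in control 2 and 1.10 to 3.02 CPM with sorbate, and no marker was at 0 in all libraries. The 8 markers of monocytes and macrophages, of which 6 were tested, 0 called by edgeR and 3 at an unadjusted p of 0.05, summed to 42.9 to 90.0 CPM in control and 37.7 to 62.6 CPM in sorbate libraries. Of 5 red blood cell markers 4 were lower; the summed CPM was at least 527.1 in controls 1, 3 and 4, 331.3 in control 2 and at most 372.7 with sorbate. Of 5 tested cholangiocyte markers 2 were lower, one of them Spp1, and control 2, at a sum of 62.9 CPM, lay between the other controls (131.0 to 260.8 CPM) and the sorbate libraries (40.2 to 53.0 CPM). Sinusoidal endothelial markers had 1 of 9 lower and 5 at an unadjusted p of 0.05, all with negative log2 fold changes, and their sum was 143.3 CPM in control 2, below both the other controls (256.4 to 296.5 CPM) and the sorbate libraries (155.8 to 190.7 CPM). The 1 tested B cell marker was lower (log2 fold change −1.47). Stellate cell and fibroblast markers, 9 tested, had 0 called and 6 positive log2 fold changes, with a median of 0.17. Their sum was 131.1 CPM in control 2, 166.3 to 210 CPM in the other controls and 140.5 to 236.5 CPM with sorbate. T and NK cell markers, 1 tested and 0 called, summed to 0.782 CPM in control 2 and at least 1.84 CPM in the other controls. Control 2 thus lay below the other controls in the sums of the Kupffer, neutrophil, monocyte, red blood cell, cholangiocyte and endothelial markers. The same held for the stellate and the T and NK cell sums. It did not hold for the hepatocyte and B cell sums, where control 2 lay within the range of the other controls. Markers of intestinal epithelium and exocrine pancreas were summed as well. Control 2 lay within the other controls for the intestinal sum and was the highest control for the pancreas sum. The intestinal marker that was tested was called higher with sorbate, and the tested pancreas marker was not called. Immune and other non-parenchymal cells express several of the members, and the part of these cells in the levels of the members and of the lists above was not tested.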

How the data were processed

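Poly(A) RNA of 8 snap-frozen liver samples was sequenced as single reads, per the labels' protocols. The deposited table holds raw counts of reads per gene. Build GRCm38, FastQC, the aligner HISAT2 2.1.0, Subread and edgeR are named, with no order of steps, per the submitters' processing notes. How reads were counted, and whether by strand, is not given in the sources used here. Each column was tied to a sample by its library name; another 4 columns of per-sample values fit no sample here and were left out. Groups came from the treatment label.

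Genes were kept by filterByExpr (count minimum 10) and tested with edgeR 4.0.16 in R 4.3.3: TMM scaling, the quasi-likelihood test, two-sided, Benjamini-Hochberg adjustment over all genes, threshold 0.05. Standard errors and 95% intervals came from the unshrunk coefficient and the F statistic. Alternatives used DESeq2 1.42.0, limma 3.58.1 and sva 3.50.0, the last on TMM-scaled counts. The fit was tested on simulated counts. Coordinates and exon lengths came from GENCODE vM21 and start regions from RefSeq.

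The members, the lists and the tests were chosen with earlier results of these data known. All 10 members are named. Each further list gave up to 4 called genes with the lowest p, or 2 as values if none passed. For Fos, Jun, Junb, Egr1, Atf3 and Myc the 2 genes with the highest correlation of log2 CPM (prior count 2) were named, among genes of at least 1 CPM in a group, leaving out predicted genes. Genes described in the text as named after their values were seen fall outside this rule. One called gene of the lists is not reported here by name.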

Additional observations from a re-analysis of the deposited data

Results flagged for a closer look

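In 3 of the 18 groups of 4 libraries formed by the 9 tested members, a single library stood apart by Dixon's criterion, which divides its gap to the nearest other library by the range of its group (95% level). With normally distributed values about 1 in 20 groups does so by chance. CPM need not be so distributed, and the 18 groups come from the same 8 libraries. Myc was at 59.8 CPM in sorbate 3, against a next highest sorbate library of 4.93 CPM (ratio 0.944). Jun was at 88.4 CPM in sorbate 4, against a next highest of 30.4 CPM (ratio 0.864). Fosl2 was at 4.86 CPM in control 2, against a next lowest control of 11.7 CPM (ratio 0.872). Among all genes tested, sorbate 3 stood above its group in 0.766%, sorbate 4 in 1.06%, and control 2 below its group in 1.22%. Each of these shares is for 1 library in 1 direction, whereas the 3 of 18 takes any library in either direction.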

How the results depend on the processing

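Against 818 genes higher and 838 lower with sorbate, the calls were 1208 and 1243 with DESeq2, 1300 and 550 with total count scaling, 1968 and 1944 with limma-voom and quality weights, 322 and 301 with 1 surrogate variable, and 1337 and 1414 at a threshold of 0.1. Leaving out a library gave 332 to 2053 higher and 357 to 1915 lower, with the fewest without control 3 and the most without control 2. Over all genes tested the median was −0.02 with TMM and 0.11 with total count scaling (log2). Of the members, 1 was called higher with DESeq2, with no filter on low counts and at a threshold of 0.1 (Fos), and 1 lower with DESeq2, limma-voom and a threshold of 0.1 (Junb). With no filter, 886 genes were called higher and 963 lower among 23605 genes tested. At a threshold of 0.1, 20.7% of the 13312 genes were called. Leaving out a library gave 0 to 1 members called in each direction. The cause of these shifts was not tested.

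Log2 fold changes of the other sign were found with the surrogate variable for Fosl2 (0.48), Egr1 (0.48), Mt2 (0.53), Mcl1 (0.073), Etv6 (0.21), Il1b (0.29), Nat8 (−0.036) and Rab2b (−0.013). The same held with total count scaling for Egr1 (0.0435), Mcl1 (0.10), Il1b (0.13) and Gstt1 (0.040), with limma-voom for Atf3 (−0.50) and with no filter for Il1b (5e-04). Leaving out a library gave −0.30 to 0.14 for Egr1, −0.32 to 0.50 for Atf3, −0.36 to 3.01 for Myc, −0.066 to 0.038 for Mcl1, −0.35 to 0.032 for Etv6, −0.43 to 0.31 for Il1b and −0.16 to 0.0195 for Gstt1. With this variable Ccn1, Sik1, Spry4, Dusp8, Map2k3, Crem, Met, Mnt, Mycl, Ldha, Nme1, Cxcl2, Mt2 and Atg16l2 were no longer called. The surrogate variable had the value 0.478 for control 2, −0.513 to −0.360 for controls 1, 3 and 4, and 0.0604 to 0.289 for the sorbate libraries. Save for control 2 it thus followed the groups, and a call lost with it cannot be told apart from a loss of part of the treatment difference. No paired analysis was possible because the replicate numbers follow the order of deposit and pair no samples. Fosb, with 15 and 21 reads over the groups, could not be tested after the filter.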
